A study of Saccharomyces cerevisiae with 31 samples.

Results

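The 10 genes described here encode the enzymes that make and break trehalose and those that supply its glucose donor in budding yeast, *Saccharomyces cerevisiae*. They were chosen by name: TPS1, TPS2, TPS3 and TSL1 for synthesis, NTH1, NTH2 and ATH1 for breakdown, and PGM1, PGM2 and UGP1 for the route through glucose-1-phosphate to UDP-glucose. They are 10 of 6021 annotated protein-coding genes. RNA of wild type (WT) was set against that of 3 mutants of SPT6, named spt6-1004, spt6-S8A and spt6-S8E after their alleles, with 3 libraries for each of the 4 genotypes. Spt6 is a histone chaperone that travels with RNA polymerase II, and the series asks what its phosphorylation by casein kinase 2 does. spt6-1004 is a widely used temperature-sensitive allele, spt6-S8A puts alanine in place of phosphorylated serines, and spt6-S8E puts glutamate there. All strains were grown in rich glucose medium (YPD) at 30 °C from an optical density of 0.2 to 1.

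Trehalose is a disaccharide of 2 glucose units that yeast stores and that protects proteins and membranes under stress. Tps1 joins glucose-6-phosphate and UDP-glucose to trehalose-6-phosphate, Tps2 removes the phosphate, and Tps3 and Tsl1 are large subunits of the same complex. Neutral trehalases in the cytosol and an acid trehalase outside it split trehalose back to glucose, so synthesis and breakdown together form a cycle. Phosphoglucomutase turns glucose-6-phosphate into glucose-1-phosphate, from which Ugp1 makes the UDP-glucose that trehalose, glycogen and cell wall glucan all draw on. In cells fermenting glucose the cycle is held low, and many of its genes are known targets of the stress factors Msn2 and Msn4.

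Each value given is a log2 fold change of a mutant against WT from the authors' deposited tables, where a DESeq2 fit also gave it a standard error (SE). The tables hold no value per library, so library depth is unknown and no spread of single samples can be shown. Whether the 3 libraries of a genotype came from separate cultures is not stated, so the spread behind the p-values may be technical. Each table lists only genes with an adjusted p under 0.05, and "listed" has that meaning here. A gene that is not listed has no known value.

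In spt6-1004 genes that make trehalose and genes that split it rose, and the pair of phosphoglucomutase genes moved in opposite directions. Of the 10 genes, 6 rose (TPS1, TSL1, NTH1, NTH2, PGM2 and UGP1), 1 fell (PGM1) and 3 were not listed (TPS2, TPS3 and ATH1). Of the 7 genes of the trehalose cycle itself, 4 rose and 3 have no known value, and the call of NTH2 ended at an adjusted p under 0.01, which leaves 3. Across all 5668 genes that the authors adjusted, 12.2% were listed, 5.63% as higher and 6.62% as lower. Among the 10 genes these shares were 6 of 10 and 1 of 10. The 10 genes were chosen with earlier results of these data known, so these counts are not independent evidence. The median log2 fold change of the 6 that rose was 2.03, beside 1.64 for all 319 genes listed as higher. Both medians cover only genes that passed the threshold.

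**Figure D1:**
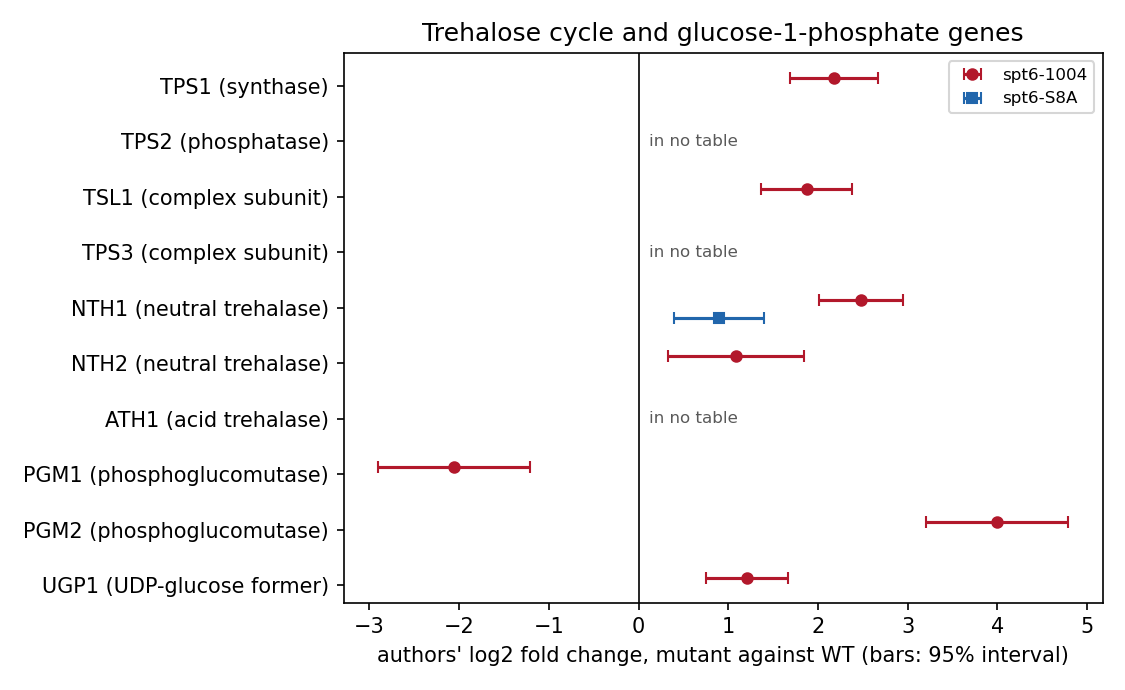
The authors' log2 fold change against WT (horizontal axis) for each of the 10 genes, with 95% intervals from the deposited standard errors; circles are spt6-1004 and the square is spt6-S8A, each from 3 mutant and 3 WT libraries. In spt6-1004 PGM2 stands furthest to the right at 3.99 and PGM1 alone lies left of 0, at -2.06, and TPS2, TPS3 and ATH1 are in no table.

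The synthesis complex was listed for its synthase and for 1 of its 2 large subunits. TPS1 (YBR126C), the trehalose-6-phosphate synthase gene, lies on chromosome II from 488905 to 490392 (R64, coding gene). It rose by 2.18 on the log2 scale (SE 0.25, adjusted p = 8.13e-16, DESeq2), a 4.53-fold increase with a 95% interval of 3.22 to 6.37. TSL1 (YML100W), which encodes a large subunit of the complex, lies on chromosome XIII from 70624 to 73920. Its log2 fold change was 1.87 (SE 0.26, adjusted p = 3.75e-11, DESeq2), a 3.67-fold increase. The increases of TPS1 and TSL1 differed by 0.30, with a 95% interval of -0.40 to 1.01 that holds 0.

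TPS2, the phosphatase gene of the complex (YDR074W, chromosome IV, 593893 to 596583), and TPS3, the gene of the other large subunit (YMR261C, chromosome XIII, 790205 to 793369), were listed in no table. A missing row does not show an unchanged gene. A gene that was adjusted and not listed for spt6-1004 had a Wald statistic, its log2 fold change divided by its SE, no larger in size than 2.74. With the SEs of the listed genes, which ran from 0.14 to 0.54, that allows a log2 fold change of up to 0.38 at the smallest SE and up to 1.47 at the largest. The SEs of TPS2 and TPS3 are not in the tables, and whether these genes differ from TPS1 and TSL1 was not tested.

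On the breakdown side, both neutral trehalase genes rose in spt6-1004. NTH1 (YDR001C), which encodes the main neutral trehalase, lies on chromosome IV from 450220 to 452475 and rose by 2.48 (SE 0.24, adjusted p = 1.49e-22, DESeq2), a 5.57-fold increase with a 95% interval of 4.02 to 7.71. It had the smallest adjusted p of the 10 genes and rank 18 among the 694 listed. NTH2, its paralog (YBR001C, chromosome II, 238941 to 241283), stood at 1.09 (SE 0.39, adjusted p = 0.0409, DESeq2), a 2.13-fold increase. That call was near the threshold, at rank 660 of 694, and ended at an adjusted p under 0.01. Whether reads shared between the paralogs NTH1 and NTH2 add to the NTH2 value was not tested. The increase of NTH1 exceeded that of NTH2 by 1.39 on the log2 scale, with a 95% interval of 0.50 to 2.28. ATH1, the acid trehalase gene (YPR026W, chromosome XVI, 615379 to 619014), was listed in no table, and the limits given for TPS2 hold for it too.

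The genes around glucose-1-phosphate gave the widest contrast. PGM2 (YMR105C), the gene of the major phosphoglucomutase, lies on chromosome XIII from 475897 to 477606. It rose by 3.99 (SE 0.40, adjusted p = 1.35e-20, DESeq2), a 15.9-fold increase with a 95% interval of 9.18 to 27.6. PGM1 (YKL127W), the gene of the minor isozyme, lies on chromosome XI from 203541 to 205253. It fell by 2.06 (SE 0.43, adjusted p = 4.54e-05, DESeq2) and was 4.16-fold lower than in WT, with a 95% interval of 2.32 to 7.47. PGM2 ranked 10 among 319 increases and PGM1 ranked 12 among 375 decreases by size. The log2 fold changes of PGM2 and PGM1 lay 6.05 apart, with a 95% interval of 4.89 to 7.21. Paralogs can share reads, and how the authors' counting treated such reads is not stated. UGP1, which makes UDP-glucose from glucose-1-phosphate (YKL035W, chromosome XI, 369891 to 371390), rose by 1.21 (SE 0.23, adjusted p = 8.13e-06, DESeq2), a 2.31-fold increase.

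**Figure D2:**
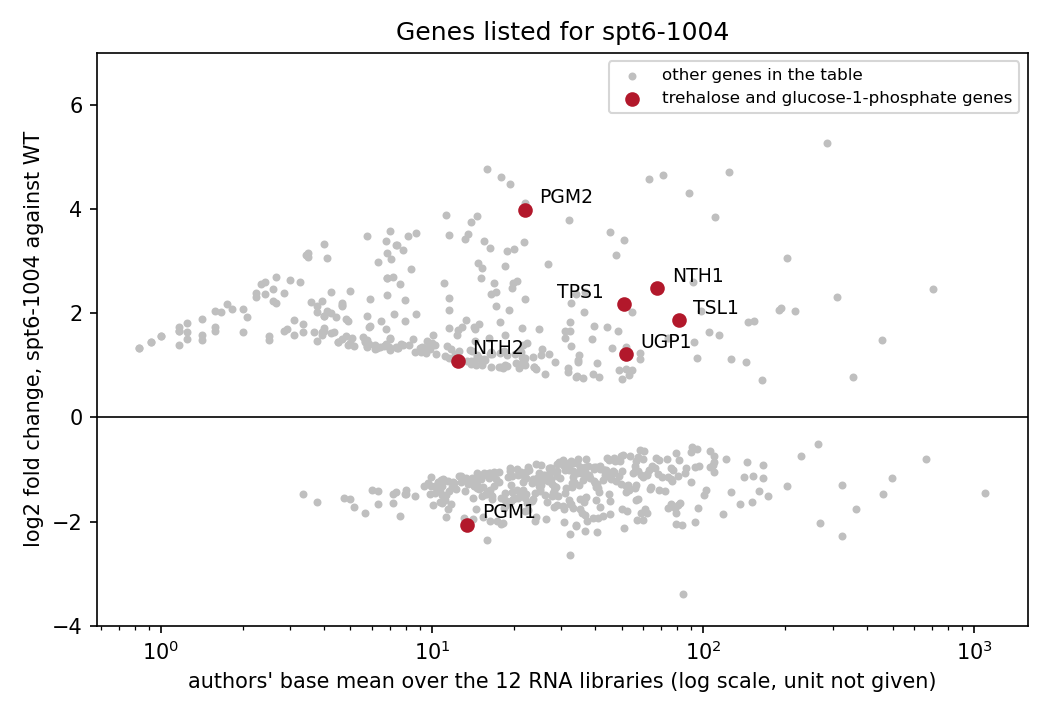
Log2 fold change in spt6-1004 against WT (vertical axis) over the authors' base mean of all 12 RNA libraries (horizontal log axis, unit not given) for the 694 listed genes, with the 7 trehalose and glucose-1-phosphate genes in red. PGM2 at 3.99 and PGM1 at -2.06 lie near the outer edges of the listed genes, and NTH2 at 1.09 lies at the inner edge.

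The listed genes had base means, the authors' means over all 12 libraries, from 12.4 for NTH2 to 81.2 for TSL1. PGM1 stood at 13.5, PGM2 at 21.9, TPS1 at 50.9, UGP1 at 52.0 and NTH1 at 67.7. What unit a base mean has, and whether it is scaled by gene length, is not stated, so levels are not compared between genes of different length. The base mean includes the spt6-1004 libraries, so for a gene raised many-fold it is not a WT level. Of the 417 genes listed for spt6-1004 with base means from that of NTH2 to that of TSL1, 137 were higher and 280 lower. TPS1, TSL1, NTH1 and UGP1 were 4 of the 38 increases among listed genes with base means of at least that of TPS1, where 99 genes were lower.

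The sizes of the changes fell into an order with PGM2 at the top, then NTH1, TPS1, TSL1, UGP1 and NTH2, and PGM1 at the bottom. Of the 21 pairs of listed genes, 15 had a difference whose 95% interval left out 0, with errors taken as independent. Each of the 6 pairs with PGM2 and each of the 6 with PGM1 was among these 15, with 1 pair in both groups. NTH1 and TPS1, which follow each other in the order, differed by 0.30 (95% interval -0.38 to 0.98), and NTH1 and TSL1 by 0.60 (-0.09 to 1.29). UGP1 and NTH2 differed by 0.12 (-0.76 to 1.01). TPS1 exceeded UGP1 by 0.97 (0.30 to 1.64), so the synthase gene rose more than the gene that supplies its UDP-glucose. These intervals are not adjusted for the number of pairs.

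**Figure D3:**
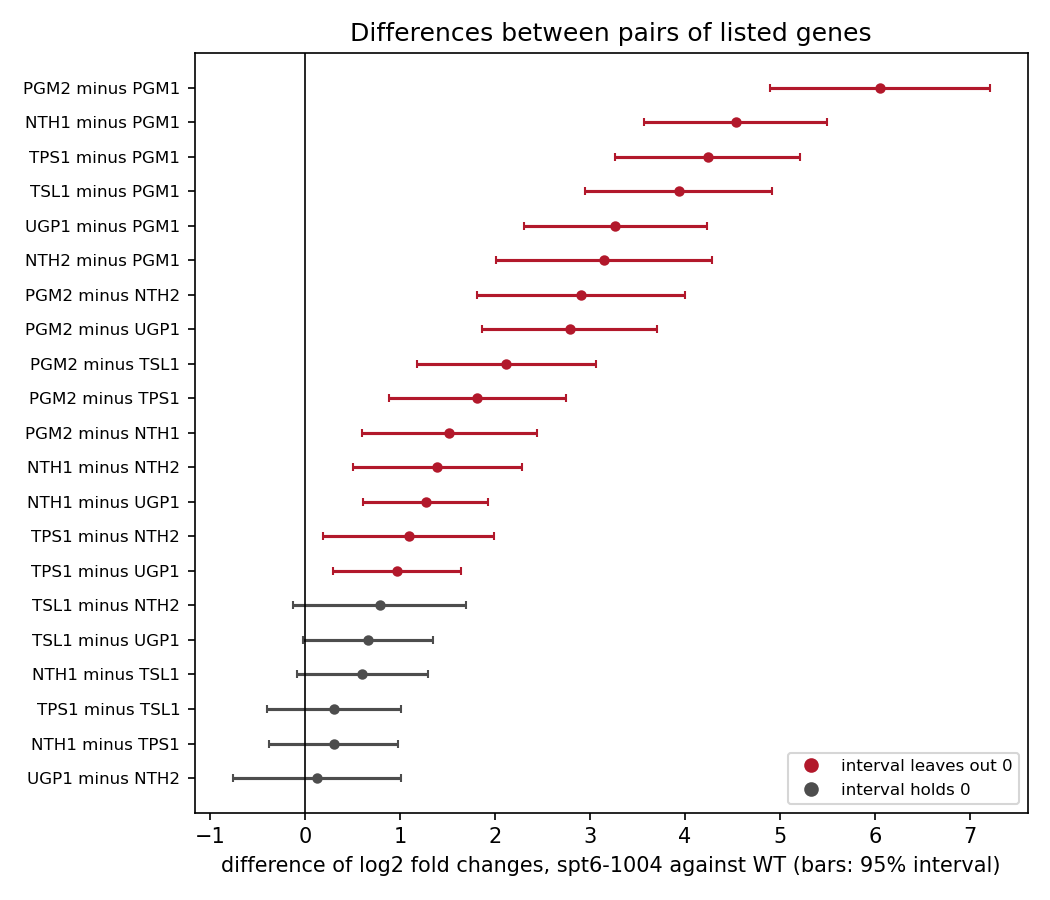
Difference of the log2 fold changes in spt6-1004 for each of the 21 pairs of listed genes (horizontal axis), with 95% intervals that take the deposited errors as independent. The 6 pairs in grey hold 0, and PGM2 minus PGM1 at 6.05 is the widest difference.

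In spt6-S8A, 1 of the 10 genes was listed. NTH1 rose by 0.89 (SE 0.25, adjusted p = 0.0212, DESeq2), a 1.86-fold increase with a 95% interval of 1.32 to 2.63. It was one of 14 genes listed as higher, at rank 9 by size. Of the 431 genes that entered this adjustment, 5.34% were listed, 3.25% as higher and 2.09% as lower. Of the 10 genes, only TPS1, TSL1, NTH1 and UGP1 can be taken as among the 431. The count of 1 of 10 and the share of 5.34% therefore have unlike bases. The call is close to the threshold and ended at an adjusted p under 0.01. Adjusted over 5668 genes, it would depend on p-values of genes that are not listed.

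The comparisons of spt6-1004 and spt6-S8A share the WT libraries. For NTH1 the log2 fold change was 1.58 larger in spt6-1004 than in spt6-S8A, with a 95% interval of 0.90 to 2.27 with errors taken as independent and 1.10 to 2.07 with errors correlated by 0.5. Among the 21 other genes listed for spt6-1004 and spt6-S8A but not for spt6-S8E, the nearest to NTH1 by distance in both log2 fold changes were YGP1, SSA4 and RPN4. YGP1, a cell wall glycoprotein gene, was at 2.04 in spt6-1004 and 0.84 in spt6-S8A, at a distance of 0.44 from NTH1. SSA4, an Hsp70 chaperone gene, was at 3.05 and 0.88, and RPN4, the gene of the proteasome transcription factor, at 1.76 and 0.93.

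For the other genes the spt6-S8A table gives limits rather than values. TPS1, TSL1 and UGP1 have base means above 32.6, the lowest in that table, so they were taken to be among the 431 genes. A gene among the 431 that was not listed had a Wald statistic no larger in size than 2.99. With each gene's SE in spt6-1004, scaled by the largest ratio of SEs (1.09) found among the 23 genes listed for both mutants, the log2 fold change in spt6-S8A was at most 0.82 in size for TPS1, 0.84 for TSL1 and 0.76 for UGP1. The spt6-1004 values of TPS1 at 2.18 and TSL1 at 1.87 had 95% intervals that start above these limits, at 1.69 and 1.37. The limits bound the fitted spt6-S8A values, which have errors of their own, so a difference between the mutants was not tested. The SE ratios of TPS1, TSL1 and UGP1 themselves are not known, so the limits are approximate. For UGP1 the interval in spt6-1004 started at 0.75 and so met the limit. If the 431 are the genes with the highest base means, NTH2 and PGM1 were not among them, since 485 and 471 listed spt6-1004 genes had base means at least as high as theirs. PGM2, with a base mean of 21.9, may or may not have been. The tables therefore set no limit on NTH2, PGM1 or PGM2 in spt6-S8A.

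**Figure D4:**
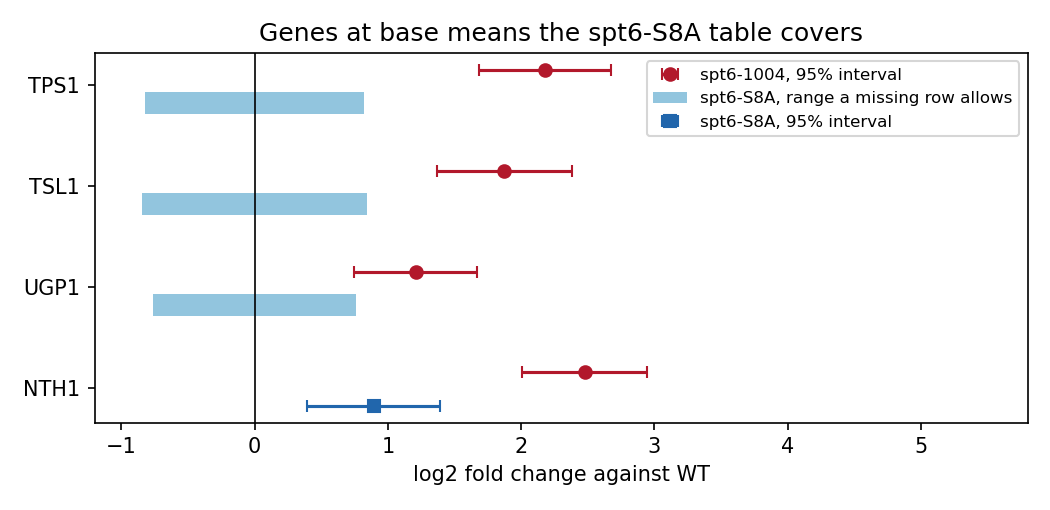
Log2 fold change against WT (horizontal axis) for the 4 genes with base means that the spt6-S8A table covers; red circles are spt6-1004 and the blue square is spt6-S8A, with 95% intervals, and the light bars span the changes that a missing spt6-S8A row allows. The bars of TPS1 and TSL1 end at 0.82 and 0.84, to the left of their spt6-1004 intervals, whereas the bar of UGP1 reaches its interval. The bars bound fitted values, leave out their errors and rest on SE ratios of other genes.

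In spt6-S8E none of the 10 genes was listed by DESeq2. The table lists 1 gene of 5668 adjusted, 0.0176%. How many of the 10 had an unadjusted p under 0.05 is not known, since only the listed row holds a p. The limits are wide here, because an adjusted gene that was not listed can have a Wald statistic of up to 4.29 in size. By the same scaling the fitted NTH1 change in spt6-S8E was at most 1.12 in size on the log2 scale, which holds the 0.89 seen in spt6-S8A. The limit was 1.18 for TPS1, 1.21 for TSL1, 1.10 for UGP1, 1.80 for NTH2, 1.89 for PGM2 and 2.01 for PGM1. The absence of these genes from the spt6-S8E table does not show that spt6-S8A and spt6-S8E differ.

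The pathways that meet this one at glucose-6-phosphate, glucose-1-phosphate and UDP-glucose were also counted in spt6-1004. These lists were written with earlier results of these data known, so their counts are not independent evidence. Of 12 glycogen genes, 7 rose and 0 fell, with a median log2 fold change of 2.63 among the listed ones. Of all adjusted genes, 5.63% were listed as higher and 6.62% as lower. Some glycogen genes had low base means, down to 1.58 for SGA1. GPH1, the glycogen phosphorylase gene, which releases glucose-1-phosphate, was at 4.11 (SE 0.41), GLC3, the branching enzyme gene, at 3.42 and GDB1, the debranching enzyme gene, at 2.63. Of 4 hexose phosphorylation genes, GLK1 rose by 1.54 and HXK1 by 1.06, and HXK2 and EMI2 were not listed. GLK1, the glucokinase gene, was also listed for spt6-S8A, at 0.75 (SE 0.24, adjusted p = 0.0447, DESeq2). None of the 7 galactose genes, whose pathway also yields glucose-1-phosphate, was listed for spt6-1004 at an adjusted p under 0.05.

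Genes of cell wall glucan synthesis were listed in both directions, but only 1 of them, FKS3, as higher. Of 7 glucan synthesis genes, FKS1 and GSC2, which encode catalytic subunits of glucan synthase, fell by 1.41 and 1.50 on the log2 scale. FKS3 rose by 1.42 at a low base mean of 7.67, beside 159.9 for FKS1 and 100.5 for GSC2. The other 4 were not listed. Of 8 genes drawn up mainly for trehalose transport and trehalase partners, 2 rose. They were MAL11, which encodes a transporter of maltose and trehalose, at 1.93 and DCS2 at 2.43. Both had low base means, 2.08 for MAL11 and 5.0 for DCS2. Since 12.2% of all adjusted genes were listed, 5.63% as higher and 6.62% as lower, lists this short would hold few listed genes in any case. BMH1 and BMH2, the 14-3-3 proteins that activate Nth1, and DCS1 were not listed. The 8 also held MAL12, MAL32 and PRM15, which are neither trehalose transporters nor trehalase partners and were not listed.

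Genes that regulate the pathway were counted too. Of 14 genes of the cAMP and protein kinase A pathway, which restrains these genes in glucose and activates Nth1, only IRA2, a Ras inhibitor gene, was listed for spt6-1004, at -0.61 (SE 0.21, adjusted p = 0.0349, DESeq2). None of 8 stress regulator genes, among them MSN2, MSN4, GIS1 and HSF1, was listed for any mutant. With 12.2% of adjusted genes listed for spt6-1004, lists of this size would hold few listed genes in any case, so nothing is read from these counts. All 13 genes of a short list of stress genes outside carbohydrate storage rose in spt6-1004, with log2 fold changes from 1.35 for GRE3 to 5.28 for SSA3 and a median of 2.70. Those with the smallest adjusted p were HSP26 at 3.85, SSA4 at 3.05 and SSA3. That list was written with earlier results of these data known, so its count is not independent evidence.

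**Figure D5:**
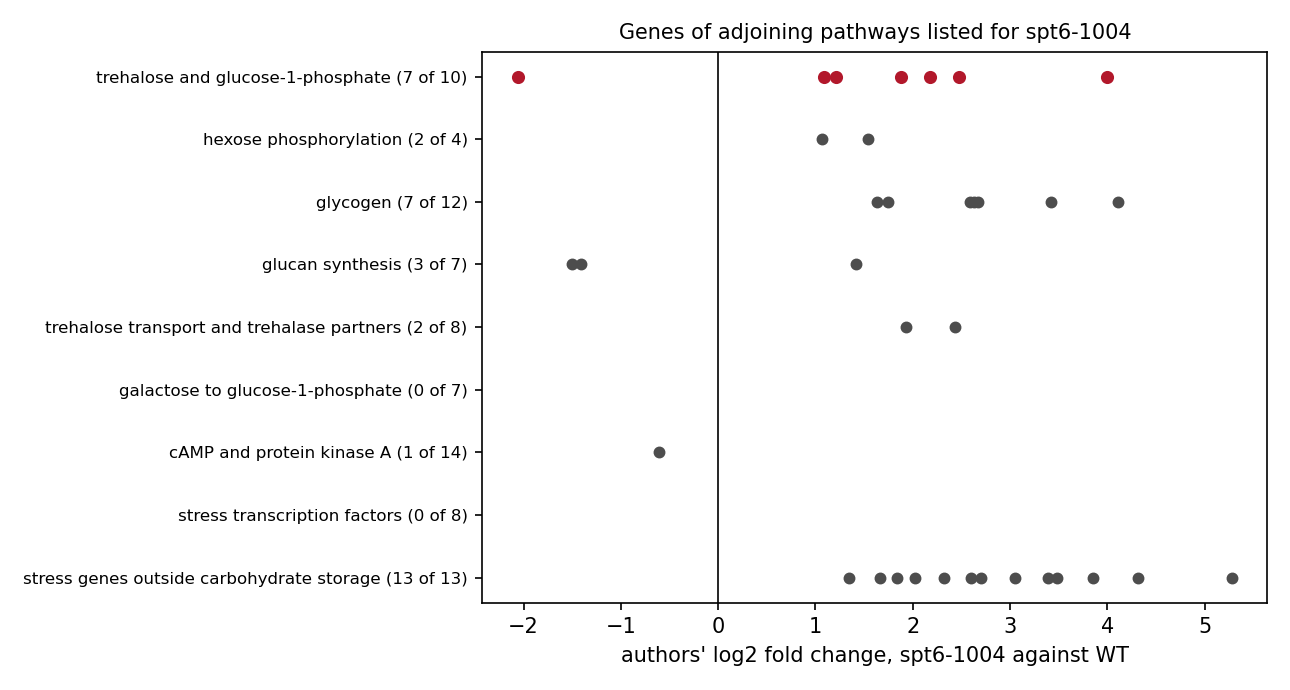
Log2 fold change in spt6-1004 against WT (horizontal axis) for every listed gene of the 10 trehalose and glucose-1-phosphate genes (red) and of 8 adjoining lists (grey), with the number listed of those annotated beside each name. The 7 glycogen points and the 13 stress gene points all lie right of 0, and FKS1 and GSC2 lie left of it.

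The 10 genes lie on 5 chromosomes, and none of the genes beside them was listed for spt6-1004. Of the 20 nearest annotated protein-coding genes, 1 on each side of each gene, 0 were listed, where 12.2% of adjusted genes were, and a neighbour that was not listed is not shown to be unchanged. The gaps ran from 169 to 1769 bp and none of the neighbours overlapped. PGM1 and PGM2 each lie beside a member of another paralog pair, YPK1 at 453 bp and YPK2 at 443 bp, and neither of these kinase genes was listed. The tables count sense reads over a gene, so a full-length transcript and one started inside the gene cannot be told apart.

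Markers of mating type and sporulation were counted too, although a list of changed genes cannot show which cells a culture held. Of 5 a-specific genes STE2 was listed for spt6-1004, at 0.87, and of 4 alpha-specific genes 0 were. Of 5 sporulation genes IME2 was listed, at 1.64 with a low base mean of 3.67. With 12.2% of adjusted genes listed, lists this short would hold few listed genes in any case. The part of these markers in the results was not tested.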

How the data were processed

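RNA was extracted with acid phenol, depleted of ribosomal RNA, mixed with ERCC spike-ins and made into stranded libraries, per the labels' protocols. The build sacCer3 and the tools DESeq2 1.14.1, Salmon 0.8.1, STAR 2.5.2b, cutadapt 1.10, SAMtools 1.3.1 and bedtools 2.26 are named, without roles, per the submitters' processing notes. Per the file headers, the deposited values are the authors' base means, log2 fold changes with standard errors on the log2 scale, Wald statistics (a score equal to the fold change over its error, checked in all 694, 23 and 1 rows), p-values and adjusted p-values. Base means times 12 were whole in every row (tolerance 1e-06). Means scaled by library depth would not in general give whole numbers, so unscaled counts or rounded, scaled values may have been fitted. Which of these holds is not stated. If base means are in counts, the error in 30 of 694 spt6-1004 rows lies under the smallest that counting allows for an unshrunken change. Changes may then be understated.

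Numbers of adjusted genes were recovered by inverting the Benjamini-Hochberg formula and returned all deposited adjusted p-values; for spt6-S8E this holds by construction. The recovery was tested on simulated data. Intervals (95%) use the deposited errors. No new test per gene was run, as no values per library were used. Names and positions came from the RefSeq gene table of R64, for which sacCer3 is another name; all 10 genes matched. The genes, lists and comparisons were chosen with earlier results of these data known. The named genes are the 10, from each adjoining list the 3 with the smallest adjusted p per comparison, and the 3 nearest to a gene listed for 2 mutants; GRE3, HXK2, regulators and other unlisted genes were named beyond this rule. The 19 chromatin immunoprecipitation and input samples were not analysed here. Promoter motifs and protein identities, which were planned, were not run. Python 3.11.15, pandas 2.3.3, NumPy 2.4.6 and SciPy 1.17.1 were used.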

Additional observations from a re-analysis of the deposited data

Results flagged for a closer look

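NTH1 was the only one of the 10 genes listed for more than 1 mutant, and its change differed between them. The log2 fold change was 1.58 larger in spt6-1004 than in spt6-S8A, and the 95% interval of that difference left out 0.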

How the results depend on the processing

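In spt6-1004 the 7 listed genes became 6 at an adjusted p under 0.01 and under a Bonferroni adjustment, both of which ended the call of NTH2, where 8.17% and 4.52% of adjusted genes were called. It was 7 with a minimum log2 fold change of 1 (10.6% of adjusted genes) and with a minimum base mean of 10. With base means of at least the lowest of the spt6-S8A table, 4 were left, since that setting removes NTH2, PGM1 and PGM2 by their level. For both base mean settings the share of all genes is not known, since genes that are not listed have no base mean. In spt6-S8A the single call of NTH1 became 0 at an adjusted p under 0.01, with a minimum log2 fold change of 1, under a Bonferroni adjustment, and when adjusted over 5668 genes with the listed genes alone, which is a lower bound. The share of genes called in spt6-S8A was 0.382% of annotated genes and 1.86% at an adjusted p under 0.01. It was 1.62% of adjusted genes with a minimum log2 fold change of 1, and 1.62% under a Bonferroni adjustment. With errors correlated by 0.5, 18 of 21 pairs of genes had an interval that left out 0 instead of 15. Whether errors of different genes are correlated to that degree is not known. No paired analysis was possible because the files used here hold no value per library, and for the same reason no replicate could be left out. Depth per library is unknown.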

Other observations

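The base mean and the fold change together limit the level in WT. The base mean of PGM2 times 12 is 263, so with the deposited fold change, and taking the libraries as equally scaled, its mean over the 3 WT libraries was at most 5.18 and that over the 3 spt6-1004 libraries at most 82.5, in the units of the base mean. If spt6-S8A and spt6-S8E stood at the WT level, the means would be 4.63 in WT and 73.8 in spt6-1004 for PGM2, and 16.7 and 4.0 for PGM1. These coding genes are 1710 and 1713 bp long, so the values can be set side by side. PGM2 would then make up 21.8% of the pair in WT and 94.8% in spt6-1004, and the sum of both would be 3.65 times as high. With the unlisted mutants at 0.5 or 2 times the WT level, the WT share of PGM2 was 16.9% or 28.9% and the sum 2.88 or 4.77 times as high. In each case PGM1 would be the larger share in WT. The labels major and minor isozyme used above would then not describe the WT RNA levels. These values rest on that assumption and on fold changes that may be shrunken, and were worked out after the data were seen.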
